A study of Mus musculus with 6 samples.

Results

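The 9 genes described here encode phosphate carriers, members of the Slc37 family, named for sugar phosphate transport, and an enzyme that releases phosphate compounds outside the cell. The genes are Slc20a1, Slc20a2, Xpr1, Slc25a3, Slc37a1, Slc37a2, Slc37a3, Slc37a4 and Enpp1. They were taken by symbol from the table of raw counts, where each symbol matched 1 of 47967 genes, and all 9 passed the filter on low counts that left 15347 genes to test. RNA was sequenced from gastrocnemius, a calf muscle, of male C57BL/6 mice aged 20 to 24 weeks. One group ate a control diet with 0.6% inorganic and 0.9% total phosphate (normal phosphate, 3 libraries) and the other a diet with 2.0% inorganic and 2.3% total phosphate (high phosphate, 3 libraries), each for 12 weeks. Magnesium (0.3%), calcium (1.9%), potassium (1.8%) and sodium (0.9%) were the same in both diets. The labels name no transgene or deletion and do not say whether a library came from 1 mouse, so the p-values measure the spread between these libraries, which may be technical.

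Phosphate is charged and crosses membranes only through carriers. Slc20a1 (PiT-1) and Slc20a2 (PiT-2) bring phosphate into cells together with sodium, and Xpr1 is the phosphate exporter of animal cells, gated by inositol pyrophosphates that bind its SPX domain. Slc25a3 carries phosphate into the mitochondrial matrix, where ATP synthase joins it to ADP. Slc37a4, of the Slc37 family, sits in the membrane of the endoplasmic reticulum. Slc37a4 moves glucose 6-phosphate into that compartment, where a glucose-6-phosphatase can split it. Enpp1, an enzyme of the cell surface, splits extracellular ATP to give pyrophosphate, an inhibitor of mineral formation.

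Xpr1 and Slc37a4 were higher on the high phosphate diet, and Slc37a2 and Enpp1 were lower, under both scalings of the libraries that were compared. Xpr1 rose 2.83-fold with TMM factors, which centre the comparison on a typical gene, and 2.03-fold when counts were divided by library size alone. Slc37a4 rose 2.01-fold and 1.44-fold. The log2 fold change of Slc37a2 was -2.30 and -2.81, and that of Enpp1 was -1.32 and -1.82. The 2 phosphate importers, Slc20a1 and Slc20a2, were called higher with TMM factors (0.45 and 0.36). With library size alone neither was called (-0.023 and -0.11).

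The stretches just upstream of the start sites of the 4 genes that moved under both scalings, and of the importer Slc20a1, are given to show what their promoters look like. They come from RefSeq (GRCm38.p6), run 5′ to 3′ on the strand of the gene, and were kept to bases outside the gene as GENCODE M21 annotates it. The stretches of Slc20a1 and Slc37a4 therefore end just before the GENCODE gene start, short of the RefSeq start. Both genes have alternative RefSeq starts, and the first window is shown for each. Capitals mark the E-box motifs CAGCTG and CACGTG. Xpr1 lies on the minus strand at chr1:155275701-155417415, with its upstream stretch at chr1:155417445-155417694. Slc37a4 lies on the plus strand at chr9:44396852-44402968, with its stretch at chr9:44396696-44396851. Slc37a2 is on the minus strand at chr9:37227585-37255738, with its stretch at chr9:37255739-37255988. Enpp1 is on the minus strand at chr10:24637914-24712159, with its stretch at chr10:24712160-24712409. Slc20a1 is on the plus strand at chr2:129198764-129211616, with its stretch at chr2:129198523-129198763.
Xpr1: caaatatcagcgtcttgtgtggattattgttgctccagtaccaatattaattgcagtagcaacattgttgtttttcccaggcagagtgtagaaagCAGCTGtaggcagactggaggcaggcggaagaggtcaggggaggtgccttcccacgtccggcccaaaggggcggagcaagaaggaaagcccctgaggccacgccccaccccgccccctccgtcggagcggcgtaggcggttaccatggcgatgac
Slc37a4: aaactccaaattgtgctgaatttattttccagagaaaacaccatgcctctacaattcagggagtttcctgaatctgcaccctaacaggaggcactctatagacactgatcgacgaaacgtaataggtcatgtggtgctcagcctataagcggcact
Slc37a2: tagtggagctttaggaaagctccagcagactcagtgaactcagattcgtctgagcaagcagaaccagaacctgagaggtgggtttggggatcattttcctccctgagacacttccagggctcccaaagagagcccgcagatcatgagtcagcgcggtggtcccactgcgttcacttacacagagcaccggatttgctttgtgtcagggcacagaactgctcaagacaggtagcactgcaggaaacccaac
Enpp1: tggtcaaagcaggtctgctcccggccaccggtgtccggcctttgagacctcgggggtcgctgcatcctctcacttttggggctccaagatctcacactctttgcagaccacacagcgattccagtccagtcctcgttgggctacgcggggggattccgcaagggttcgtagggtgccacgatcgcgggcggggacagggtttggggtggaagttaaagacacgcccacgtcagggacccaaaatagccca
Slc20a1: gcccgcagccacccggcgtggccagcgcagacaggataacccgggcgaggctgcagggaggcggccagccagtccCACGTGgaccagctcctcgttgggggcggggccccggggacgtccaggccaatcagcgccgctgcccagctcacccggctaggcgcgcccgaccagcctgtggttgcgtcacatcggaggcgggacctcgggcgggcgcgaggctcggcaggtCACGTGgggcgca
The stretch of Slc20a1 (241 bases) was the richest in G and C of these 5, at 75.5% with 28 CG pairs. That of Slc37a4, shortened to 156 bases, held 44.2% and 4 CG pairs, and its whole window of 250 bases 49.6% and 7. The other 3 stretches are 250 bases long. Xpr1 stood at 57.6% with 13 CG pairs, Enpp1 at 61.2% with 17 and Slc37a2 at 53.6% with 6. Over all 32851 windows of 250 bases in the RefSeq table the median was 52.4% G and C and 6 CG pairs.

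RefSeq held such windows for 8 of the 9 members, 12 windows in all, counting alternative starts. None was found for Slc20a2. The search covered 4 motifs on both strands. CAGCTG was in 5 of the 12 windows and in 13.0% of all windows. The 5 were those of Xpr1 and Slc37a1 and 1 window each of Slc20a1, Slc37a3 and Slc37a4. The windows of Slc20a1 and Slc37a4 that held it are not the ones printed above. CACGTG was in 2 of the 12, 1 window of Slc20a1 with 2 copies and 1 of Slc37a3, and in 6.02% of all. The FoxO site GTAAACA and a MEF2 site (CTA and TAG with any 4 bases between them) were in none of the 12, against 3.17% and 3.20% of all windows. A match is only a run of letters, and a window without one says only that these letters are not there.

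Over the whole comparison, 3528 of 15347 genes were called higher and 4035 lower, by edgeR's quasi-likelihood test with TMM factors at a Benjamini-Hochberg adjusted p under 0.05. These are 23% and 26.3% of the genes. Scaled by library size alone, 5.72% were called higher and 51.4% lower, and the median over all genes shifted from -0.016 to -0.49 on the log2 scale. The libraries held 21856006 to 27474251 counts. TMM factors were 1.10 to 1.29 under normal phosphate and 0.795 to 0.882 on the high phosphate diet, so the scalings differ between the diets in 1 direction. General markers of skeletal muscle fibres, such as Ckm and Ttn, summed to 32444 to 46864 CPM (counts scaled to a common library total, here with TMM factors) under normal phosphate and 82238 to 95357 CPM on the high phosphate diet, and 6 of the 8 were called higher and 0 lower (3 and 1 with library size alone). All 8 fibroblast markers were called lower, from a sum of 4572 to 10590 CPM to one of 2294 to 2554 CPM. Normal phosphate replicate 2 stood apart from its diet, with the highest fibroblast sum and the lowest sum of fibre markers. Values without it are given for the genes and ratios that it moved most.

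Of the 9 members, 4 were called higher and 2 lower with TMM factors, where 23% and 26.3% of all genes were. Together these are 6 of 9, beside 49.3% of all genes called either way. Under library size alone, 2 were called higher and 4 lower, where 5.72% and 51.4% were (57.1% either way). Xpr1, Slc37a4, Slc37a2 and Enpp1 were called and changed by over 2-fold with TMM factors, as did 18% of all genes, and Xpr1, Slc37a1, Slc37a2 and Enpp1 with library size alone, as did 28.3%. The diets did not overlap for 7 members with TMM factors and for 5 with library size alone, beside 62.4% and 68.4% of all genes. The median log2 fold change of the members was 0.36 with TMM factors and -0.11 with library size alone. With so many genes called, these counts show nothing particular to the members as a set. The plot of values by library shows each gene under each scaling.

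**Figure D1:**
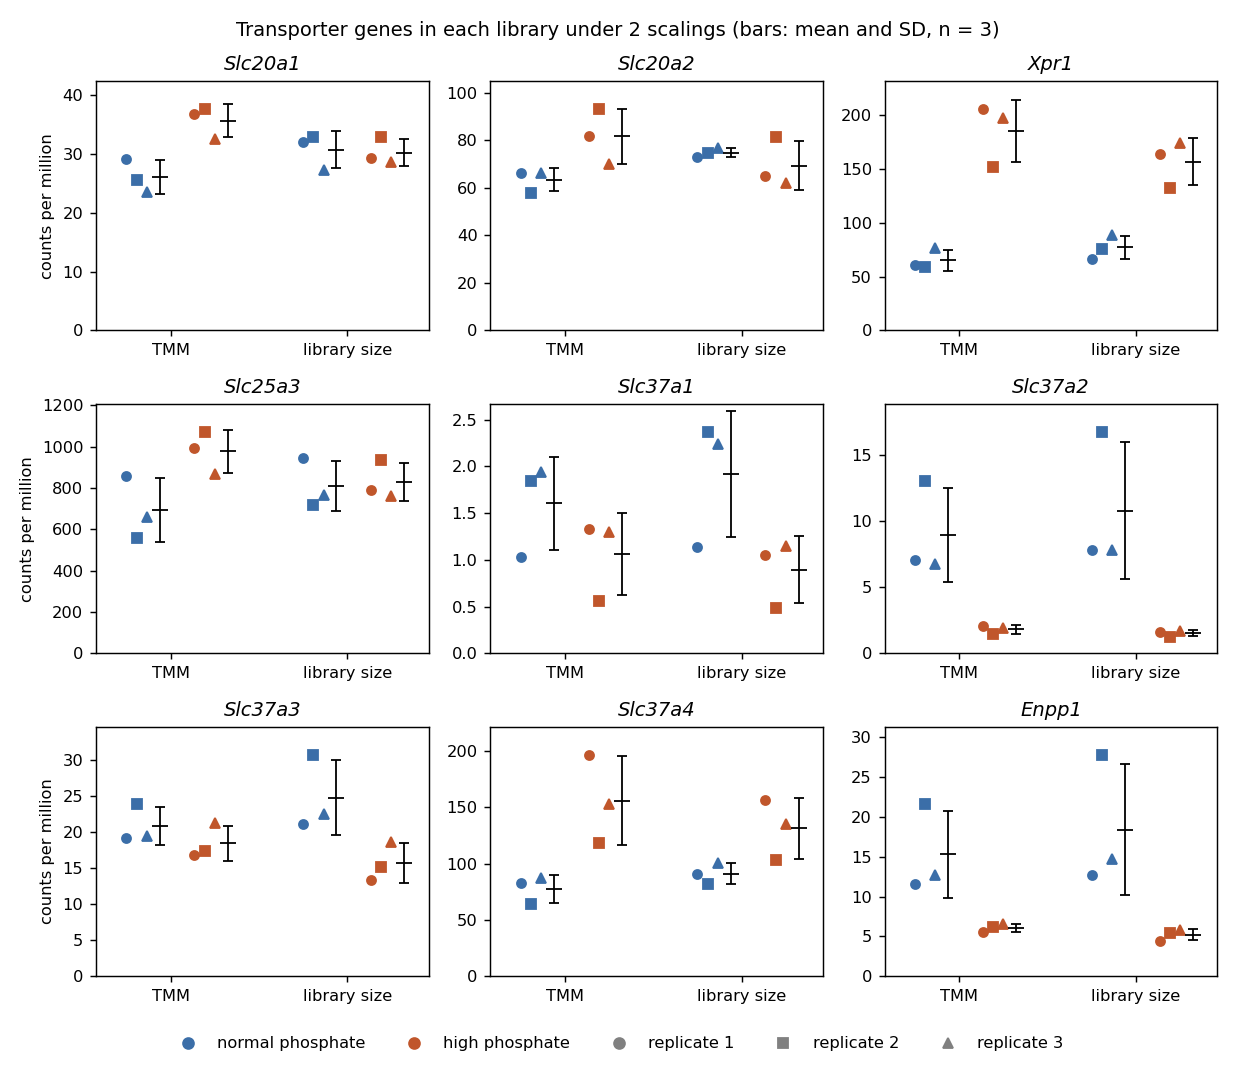
CPM of the 9 genes in each library, with TMM factors on the left of each panel and library size alone on the right. Blue marks are normal and orange marks high phosphate libraries, marker shapes are replicate numbers, and bars give the mean and SD of n = 3. Xpr1 and Slc37a4 are higher and Slc37a2 and Enpp1 lower without overlap under both scalings, whereas the diets of Slc20a1, Slc20a2 and Slc25a3 separate with TMM factors and overlap with library size alone.

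Xpr1, the exporter, rose by the most of the 9. Its mRNA level with TMM factors was 60.3, 59.1 and 76.6 CPM in normal phosphate replicates 1, 2 and 3, and 206, 152 and 197 CPM in the high phosphate replicates. The lowest high phosphate library was well above the highest normal phosphate library. The mean went from 65.3 ± 9.76 to 185 ± 29.0 CPM (SD, n = 3 per diet), a log2 fold change of 1.502 ± 0.16 (SE, edgeR adjusted p = 0.000372). Only a small share of genes rose more: 98.4% of the genes tested had a lower log2 fold change. Library-size scaling gave 1.02 ± 0.14 (edgeR adjusted p = 0.000729). The call was kept under all 16 other settings tried for the TMM fit. Other genes' transcripts hold 0.351% of its runs of 50 bases, and none of its exonic bases is annotated to another gene.

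The importers Slc20a1 and Slc20a2 moved much less. Slc20a1 was at 29.1, 25.6 and 23.5 CPM under normal phosphate and at 36.7, 37.7 and 32.5 CPM on the high phosphate diet with TMM factors. The high phosphate libraries were all above the others there. In library-size CPM the same libraries read 32.0, 32.9 and 27.2 against 29.2, 32.8 and 28.7, which overlap. The log2 fold change was therefore 0.45 ± 0.11 (edgeR adjusted p = 0.0101) with TMM factors and -0.023 ± 0.12 (edgeR adjusted p = 0.882) with library size alone. On the log2(FPKM + 1) scale it was 0.079 (limma adjusted p = 0.659), which was not called. Transcripts annotated on the opposite strand, 9830144P21Rik and Gm4430, cover 8.10% and 5.02% of its exonic bases.

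Slc20a2, on the plus strand at chr8:22476788-22569612, showed the same dependence on the scaling. It was at 66.2, 58.1 and 66.3 CPM under normal phosphate and at 81.7, 93.3 and 70.2 CPM on the high phosphate diet with TMM factors. High phosphate replicate 3 lay close to the normal phosphate libraries. Its log2 fold change was 0.36 ± 0.13 (edgeR adjusted p = 0.0369) with TMM factors and -0.11 ± 0.12 (edgeR adjusted p = 0.459) with library size alone. With TMM factors the call was lost when any library other than high phosphate replicate 3 was left out, at log2 fold changes of 0.27 to 0.40.

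The deposited FPKM of Slc20a2 did not follow its counts from library to library. They were 10.4, 12.4 and 11.1 under normal phosphate and 8.42, 7.93 and 10.4 on the high phosphate diet, so the diet that was higher with TMM factors was lower here, as it was, by less, with library size alone. High phosphate replicate 2 had the most library-size CPM, 81.3, and the lowest FPKM. FPKM per 100 library-size CPM ranged from 9.76 in high phosphate replicate 2 to 16.7 in high phosphate replicate 3, a 1.72-fold range. The same range was 1.62-fold for Enpp1, 1.33-fold for Slc37a3 and Slc20a1, and 1.03-fold to 1.16-fold for the other 5 genes. The cause was not tested.

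Counts within a library give ratios that no scaling between libraries can move. There were 1.74, 1.16 and 1.92 counts of Xpr1 for each count of the 2 importers together on the high phosphate diet, and 0.633, 0.706 and 0.852 on the normal phosphate diet. The ratio was higher in every high phosphate library than in any normal phosphate library. The ratio was 2.17-fold higher, a log2 difference of 1.12, with group SDs of 0.39 on the high and 0.22 on the normal phosphate diet. The two-sided exact permutation test gave p = 0.1, the smallest that 3 libraries against 3 allow, and 0.12 after adjustment over the 6 ratios compared. Ratios between genes also carry their lengths, so only their change is read. Slc20a2 counts per Slc20a1 count were 2.28, 2.27 and 2.82 under normal phosphate and 2.22, 2.48 and 2.16 on the high phosphate diet, which overlap (log2 difference -0.098, exact permutation p = 0.5). From FPKM values the log2 difference of that ratio was -0.44, without overlap (exact permutation p = 0.1).

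**Figure D2:**
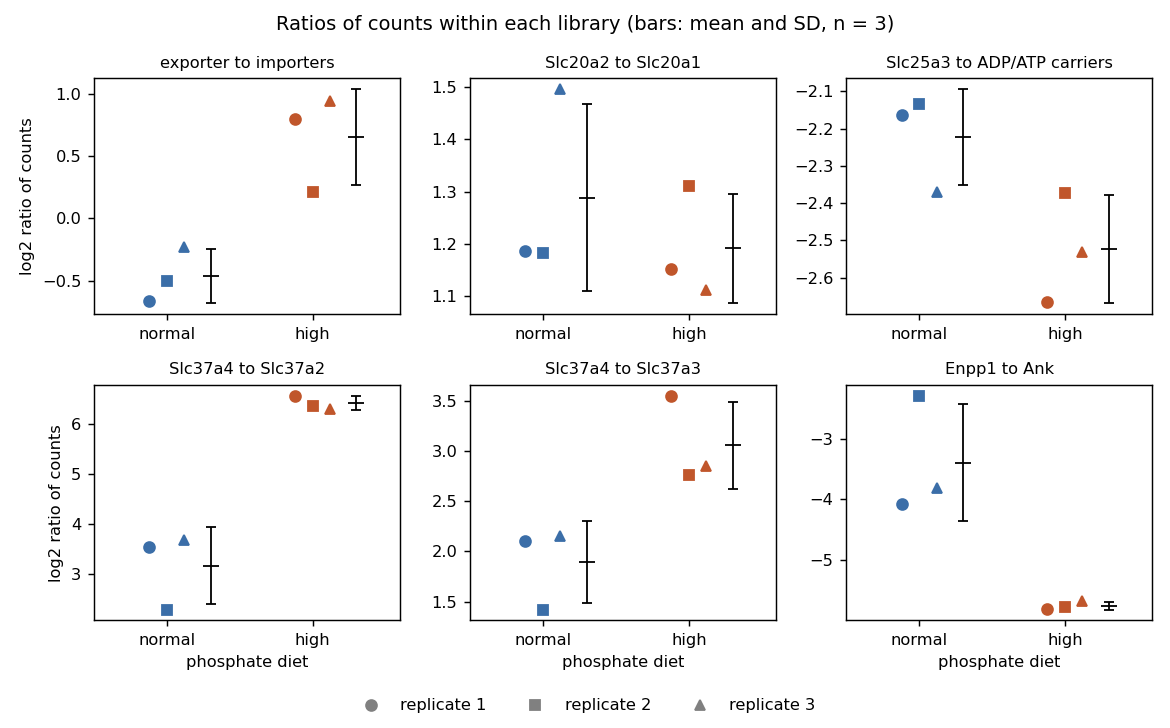
Log2 ratios of counts within each library for 6 pairs or sums of genes, by diet. Marker shapes are replicate numbers and bars give the mean and SD of n = 3. The exporter to importer ratio rises from a mean of -0.46 to 0.65, the Slc37a4 to Slc37a2 ratio from 3.18 to 6.42, and the Slc20a2 to Slc20a1 ratio overlaps between the diets.

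Slc25a3, the mitochondrial carrier, lies on the minus strand at chr10:91116574-91124059 and was by far the most abundant member. It was at 860, 556 and 662 CPM under normal phosphate and at 992, 1073 and 866 CPM on the high phosphate diet with TMM factors. The diets did not overlap, but high phosphate replicate 3 and normal phosphate replicate 1 were nearly level. The log2 fold change of 0.50 ± 0.20 was not called (edgeR adjusted p = 0.0657). It was called by DESeq2 (0.53, adjusted p = 0.0110) and by edgeR without normal phosphate replicate 1 (0.69, adjusted p = 0.0200). Library-size scaling gave 0.034 ± 0.15 (edgeR adjusted p = 0.855).

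Slc25a3 was also set against the ADP/ATP carriers, which exchange ADP and ATP across the same membrane. Per count of Slc25a4 and Slc25a5 together there were 0.223, 0.228 and 0.1934 counts of Slc25a3 under normal phosphate and 0.158, 0.1930 and 0.173 on the high phosphate diet. The groups only just did not overlap, at a log2 difference of -0.30 (exact permutation p = 0.1, 0.12 adjusted over 6 ratios). They overlapped in the ratio of FPKM values (-0.21, exact permutation p = 0.3). Without normal phosphate replicate 2 the log2 difference of counts was -0.26, still only just without overlap (exact permutation p = 0.2). The 2 carriers went opposite ways with TMM factors: Slc25a4, the muscle and heart form, rose (0.81 ± 0.23, edgeR adjusted p = 0.0181) and Slc25a5 fell (-0.57 ± 0.13, edgeR adjusted p = 0.00644). Under library-size scaling Slc25a4 was not called (0.35, edgeR adjusted p = 0.0790), whereas Slc25a5 still fell (-1.05).

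Slc37a4, the glucose 6-phosphate carrier, was the other gene that rose under both scalings. It stood at 82.5, 63.8 and 86.9 CPM under normal phosphate and at 197, 118 and 153 CPM on the high phosphate diet with TMM factors. The high phosphate libraries were spread widely, with replicate 1 the highest, but all lay above the normal phosphate libraries. The rise was 1.01 ± 0.20 on the log2 scale (edgeR adjusted p = 0.00329), and 0.53 ± 0.16 under library-size scaling (edgeR adjusted p = 0.0179). The second call was lost without high phosphate replicate 1 (0.38, edgeR adjusted p = 0.0659) or replicate 3 (0.51, edgeR adjusted p = 0.0550). None of its runs of 50 bases was found in another gene's transcripts.

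Slc37a2, a relative of Slc37a4 that is abundant in macrophages and osteoclasts, moved the other way. It had 184, 367 and 184 counts under normal phosphate and 45, 28 and 37 on the high phosphate diet, or 7.05, 13.0 and 6.74 against 2.06, 1.43 and 1.92 CPM with TMM factors. Normal phosphate replicate 2 was the highest, and the high phosphate libraries were close together. The log2 fold change was -2.30 ± 0.30 (edgeR adjusted p = 0.000721), a level 4.93-fold lower, and only 2.11% of the genes tested had a more negative one. Without normal phosphate replicate 2 it was -1.93 (edgeR adjusted p = 0.000365), and -2.34 in place of -2.81 under library-size scaling. A transcript annotated on the opposite strand, Gm48081, covers 3.63% of the exonic bases of Slc37a2. Other genes' transcripts hold 2.87% of the gene's runs of 50 bases.

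The relatives Slc37a1 and Slc37a3 were not called with TMM factors. Slc37a3, on the minus strand at chr6:39334773-39377675, was at 19.2, 23.9 and 19.5 CPM under normal phosphate and at 16.8, 17.4 and 21.2 CPM on the high phosphate diet, which overlap (-0.18 ± 0.13, edgeR adjusted p = 0.296). Scaled by library size, the diets separated and it was called lower (-0.66 ± 0.18, edgeR adjusted p = 0.0140). That call was lost without high phosphate replicate 1 (-0.55, edgeR adjusted p = 0.0551). On the log2(FPKM + 1) scale Slc37a3 was called lower (-0.68, limma adjusted p = 0.0395). Its FPKM per 100 library-size CPM was 18.5 and 18.7 in normal phosphate replicates 1 and 2 and 14.0 to 14.4 in the other 4 libraries, so the FPKM difference holds a difference in that conversion too.

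Slc37a1, on the plus strand at chr17:31286792-31350739, was at the edge of detection, with 27, 52 and 53 counts under normal phosphate and 29, 11 and 25 on the high phosphate diet. The diets overlapped under both scalings. Its log2 fold change was -0.59 ± 0.38 with TMM factors (edgeR adjusted p = 0.217) and -1.09 ± 0.40 with library size alone, where the call (edgeR adjusted p = 0.0434) was lost when any library other than normal phosphate replicate 1 was left out. Of its exonic bases 8.31% are annotated to a pseudogene on the opposite strand as well.

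Within the family, Slc37a4 counts per Slc37a2 count went from 11.7, 4.91 and 12.9 on the normal to 95.5, 82.9 and 79.8 on the high phosphate diet. The lowest high phosphate library was thus far above the highest normal phosphate library. The ratio was 9.48-fold higher, a log2 difference of 3.24 (exact permutation p = 0.1, 0.12 adjusted over 6 ratios). Per Slc37a3 count there were 4.31, 2.67 and 4.46 counts of Slc37a4 under normal phosphate and 11.7, 6.80 and 7.23 on the high phosphate diet, 2.24-fold more (exact permutation p = 0.1), a log2 difference of 1.16. Without normal phosphate replicate 2 the log2 differences of these ratios were 2.80 and 0.93.

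Enpp1, a source of extracellular pyrophosphate, fell together with Slc37a2. It was at 11.6, 21.6 and 12.7 CPM under normal phosphate and at 5.59, 6.17 and 6.59 CPM on the high phosphate diet with TMM factors. Normal phosphate replicate 2 was again the highest. For Enpp1 the log2 fold change was -1.32 ± 0.24 (edgeR adjusted p = 0.00244), and -0.99 without that library (edgeR adjusted p = 0.00105). Library-size scaling gave -1.82 ± 0.29 (edgeR adjusted p = 0.00120), and -1.40 without that library. On the log2(FPKM + 1) scale it was not called (-0.87, limma adjusted p = 0.0536). There normal phosphate replicate 2 stood at 3.25 FPKM, against 0.925 and 1.06 in replicates 1 and 3. FPKM per 100 library-size CPM was also higher in that library, at 11.7 against 7.26 and 7.21, so the gap is wider in FPKM than in counts. On the log2(FPKM + 0.1) scale Enpp1 was called lower (-1.67, limma adjusted p = 0.0242).

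Ank, named Ankh in other species, exports pyrophosphate and ATP from cells, and it rose (1.04 ± 0.22, edgeR adjusted p = 0.00413; 0.59 with library size alone, edgeR adjusted p = 0.0182). There were 0.0594, 0.205 and 0.0710 counts of Enpp1 per count of Ank under normal phosphate and 0.0178, 0.0184 and 0.0195 on the high phosphate diet. The ratio was tight on the high phosphate diet and lower in each of its libraries, at a log2 difference of -2.36 (exact permutation p = 0.1, 0.12 adjusted over 6 ratios). Without normal phosphate replicate 2 the difference was -1.81.

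**Figure D3:**
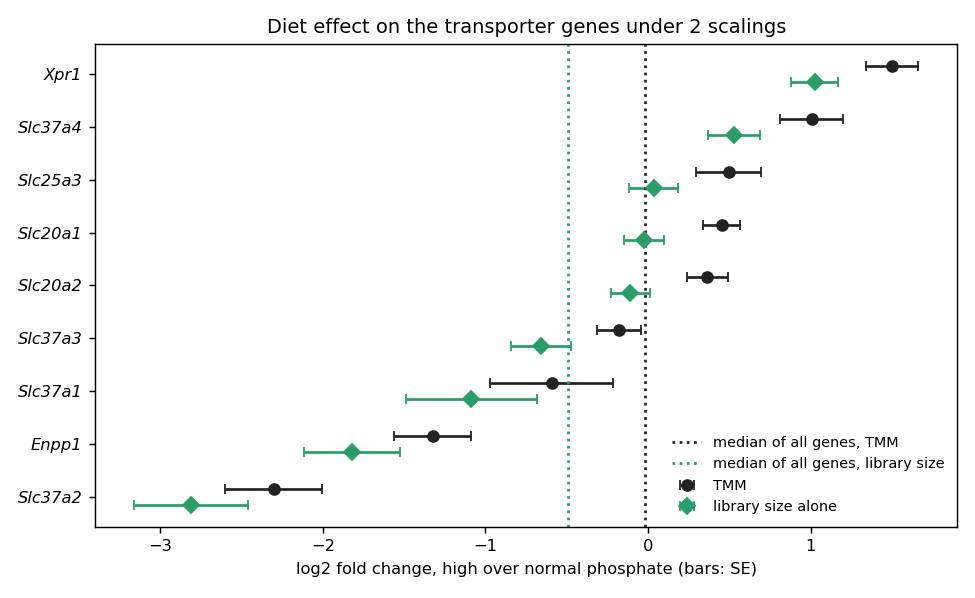
Log2 fold change of each gene, high over normal phosphate, with TMM factors (black circles) and library size alone (green diamonds), and bars for the SE. Dotted lines mark the median of all 15347 genes under each scaling, -0.016 and -0.49. Every gene is lower by a like amount with library size alone, which carries Slc20a1 and Slc20a2 from 0.45 and 0.36 across 0.

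Markers of other cells and of fibre types moved in the same libraries. With TMM factors, 7 of 10 fast fibre markers were called higher. Called lower were 7 of 8 slow fibre, 7 of 8 endothelial, 6 of 6 B cell and 2 of 7 pericyte and smooth muscle markers. Of all genes tested, 23% were called higher and 26.3% lower. Of the 6 bone and cartilage markers, 2 passed the filter and 0 were called with TMM factors. With library size alone 1 was called lower. All 6 together summed to 1.53, 10.2 and 1.46 CPM in normal phosphate replicates 1, 2 and 3. On the high phosphate diet they summed to 0.662 to 1.42 CPM. B cell markers summed to 9.61, 65.2 and 62.0 CPM in normal phosphate replicates 1, 2 and 3, and to 1.01 to 1.83 CPM on the high phosphate diet. Slow fibre markers summed to 2318 to 3436 CPM under normal phosphate and 954 to 1440 CPM on the high phosphate diet. Of 12 macrophage markers 11 were called lower and 1 higher, and their summed level was 1141 to 2184 CPM under normal phosphate and 410 to 605 CPM on the high phosphate diet with TMM factors. Of 9 white adipocyte markers 8 were called lower and 1 higher, from 2615 to 3337 CPM down to 982 to 1558 CPM. No macrophage, adipocyte or fibroblast marker was at 0 in any library. In bulk tissue, fewer cells of a type and less RNA per cell cannot be told apart.

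The genes that fell were set beside these markers, as a description chosen after the values were seen. The log2 of Slc37a2 counts per summed macrophage marker count was -7.53 ± 0.22 under normal phosphate and -8.15 ± 0.51 on the high phosphate diet (SD, n = 3), a difference of -0.63 with overlap (exact permutation p = 0.2). Per white adipocyte marker count its log2 difference was -0.99 with overlap, and per fibroblast marker count -0.83 without overlap. Enpp1 overlapped between the diets against all 3 lists, at differences of 0.36 per macrophage, 0.15 per fibroblast and -0.0026 per white adipocyte marker count (exact permutation p = 0.4, 0.4 and 1). The part of these cells in the fall of either gene was not tested.

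The same was done for all 9 genes with the general fibre markers, since these took a larger share of the counts on the high phosphate diet. Per fibre marker count Xpr1 was higher in all high phosphate libraries, with a log2 ratio of -8.89 ± 0.17 against -9.29 ± 0.27 (SD, n = 3), a difference of 0.40 (exact permutation p = 0.1). The gap between the diets was narrow. Slc37a4 overlapped, at -9.16 ± 0.26 against -9.04 ± 0.094 (difference -0.11, exact permutation p = 0.7). The other 7 genes were lower without overlap, from -0.59 for Slc25a3, -0.65 for Slc20a1 and -0.74 for Slc20a2 to -3.36 for Slc37a2. Xpr1 was thus the 1 member of the 9 higher on the high phosphate diet with TMM factors, library size alone, FPKM values and fibre markers as the base, the last with no call possible at this number of libraries. The part of the fibre RNA in these results was not tested.

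Levels of different genes can be compared per length only in the deposited FPKM, within the limit that FPKM per CPM varied between libraries, by the most for Slc20a2 and Enpp1. On the normal phosphate diet the order was Slc25a3 (431 ± 77.3), Slc37a4 (31.6 ± 3.05), Slc20a2 (11.3 ± 1.05), Slc20a1 (8.22 ± 0.816), Xpr1 (7.69 ± 0.943), Slc37a3 (4.27 ± 1.32), Slc37a2 (1.83 ± 0.909), Enpp1 (1.75 ± 1.31) and Slc37a1 (0.205 ± 0.0729), as mean ± SD of n = 3. Slc20a1 and Xpr1 overlapped, as did Slc37a2 and Enpp1, and no other neighbours did. On the high phosphate diet Xpr1 (15.4 ± 2.34) stood next below Slc37a4 and above both importers, Slc20a2 (8.90 ± 1.29) and Slc20a1 (8.77 ± 1.32), which overlapped each other. Slc25a3 (458 ± 47.2) and Slc37a4 (46.5 ± 9.76) stood above it, without overlap. Slc37a2 (0.229 ± 0.0388) stood below Enpp1 (0.399 ± 0.0465) there, without overlap.

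**Figure D4:**
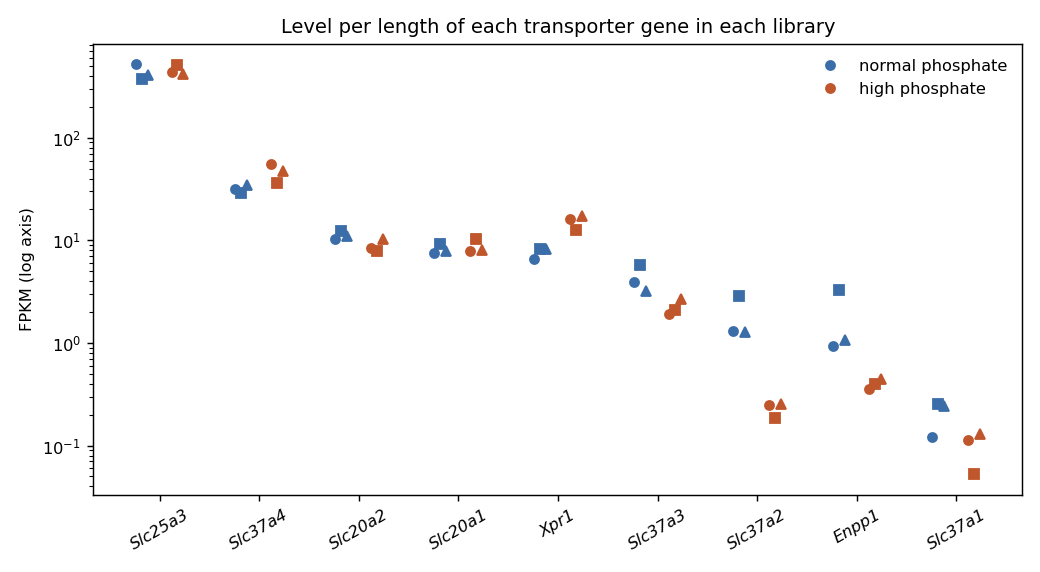
Deposited FPKM of each gene in each library on a log axis, in the order of the normal phosphate mean, with blue for normal and orange for high phosphate and marker shapes for replicates 1 (circle), 2 (square) and 3 (triangle). Slc25a3 lies above all others at 370 to 518 on the normal phosphate diet, and Xpr1 lies level with Slc20a1 there and above both importers on the high phosphate diet.

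The genes whose log2 CPM was most like that of a member were taken by Pearson correlation over the 6 libraries, 2 per member. These libraries share their diets, so many genes correlate highly and the values are a description. The correlation does not measure the size of a change, so the log2 fold change with TMM factors is given beside it. For Slc25a3 the nearest was Atp5d, a subunit of ATP synthase (r = 0.999, log2 fold change 0.43), and the other Yif1b (r = 0.996, 0.23). For Xpr1 they were Nsmaf (r = 0.999, 0.34) and Rnf150 (r = 0.999, 1.21), and 57 of 12543 genes were above 0.99. Nsmaf thus changed far less than Xpr1. For Slc37a4 they were Trdn, which encodes triadin of the calcium release complex (r = 0.998, 0.78), and Dhx35 (r = 0.998, 0.26). For Slc37a2 they were Rrm2 (r = 0.999, -1.47) and Ngfr (r = 0.998, -1.86), with 110 genes above 0.99. The 2 for Enpp1 were Fscn1 (r = 0.999, -1.65) and Stx6 (r = 0.999, -0.57). Slc20a1 was nearest to Ranbp9 (r = 0.996, 0.37), Slc20a2 to Rrs1 (r = 0.996, 0.55), Slc37a1 to Chd9 (r = 0.989, -0.17) and Slc37a3 to Ice2 (r = 0.9901, -0.069). Among the members themselves, Slc37a2 and Enpp1 correlated at 0.969 and Xpr1 and Slc37a4 at 0.954 over the 6 libraries.

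The other genes of these pathways, in 5 lists, give the setting of the members. Their counts stand beside 23% of all genes called higher and 26.3% lower with TMM factors, and 5.72% and 51.4% with library size alone. Nothing particular to a list is read from them. Of 12 genes that make or break inositol phosphates and pyrophosphates, the ligands of Xpr1, 4 were called higher and 2 lower with TMM factors (median 0.37). Ppip5k1 (0.72 ± 0.15, edgeR adjusted p = 0.00447) and Ppip5k2 (-0.78 ± 0.13, edgeR adjusted p = 0.00196), which encode the same enzyme activity, went opposite ways. Nudt3, a phosphatase of these molecules, rose (0.67 ± 0.15, edgeR adjusted p = 0.00566). Library-size scaling called 0 higher and 4 lower, so the rise of Ppip5k1 (0.25) and Nudt3 (0.20) was not called there.

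Other phosphate carriers were few in this muscle. Of 12 listed, 4 passed the filter, and Slc34a2, Slc17a2 and Slc17a4 were at 0 in every library. Slc25a25, a mitochondrial carrier that exchanges ATP-Mg for phosphate, rose by the most (2.51 ± 0.18, edgeR adjusted p = 0.000117). Slc25a10, which exchanges dicarboxylates for phosphate, fell (-2.43 ± 0.20, edgeR adjusted p = 0.000184), and so did Slc25a24 (-0.85 ± 0.15, edgeR adjusted p = 0.00231), a relative of Slc25a25. The fourth, Slc25a23, was not called with TMM factors. The 3 calls were kept with library size alone, at 2.03, -2.90 and -1.33.

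Genes of pyrophosphate and of phosphate release outside the cell split evenly, with 6 of 15 called higher and 6 lower (median 0.020). Besides Ank, described above, Acp5, the tartrate-resistant acid phosphatase of osteoclasts and macrophages, fell (-2.47 ± 0.18, edgeR adjusted p = 0.000117). Enpp6 (-2.10 ± 0.20, edgeR adjusted p = 0.000284) and Entpd2 (-0.99 ± 0.15, edgeR adjusted p = 0.00124) fell as well. Library-size scaling called 3 higher and 9 lower.

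Genes that use glucose 6-phosphate and other sugar phosphates also went both ways, with 8 of 16 called higher and 5 lower (median 0.13). The 3 with the smallest p fell: the transketolase gene Tkt (-1.75 ± 0.13, edgeR adjusted p = 0.000117), the glucose-6-phosphate dehydrogenase gene G6pdx (-1.35 ± 0.11, edgeR adjusted p = 0.000132) and Pgd (-0.86 ± 0.10, edgeR adjusted p = 0.000499). G6pc3, named after its value was seen because it is the widely expressed glucose-6-phosphatase that works beside Slc37a4, rose (0.94 ± 0.11, edgeR adjusted p = 0.000538). Under library-size scaling it rose by 0.47, beside 0.53 for Slc37a4. Over the list that scaling called 5 higher and 8 lower. The phosphatases G6pc and G6pc2 did not pass the filter.

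Of the ADP/ATP carriers and ATP synthase genes, 3 of 19 were called higher and 2 lower with TMM factors (median 0.16). Atp5s, a coupling factor, rose (0.73 ± 0.13, edgeR adjusted p = 0.00196), and Atpif1, an inhibitor of the synthase, fell (-0.64 ± 0.16, edgeR adjusted p = 0.00873). Library-size scaling called 0 higher, Atp5s included (0.26), and 7 lower. DESeq2 called 7 of the list higher and 2 lower, beside 3742 and 3775 of all genes.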

How the data were processed

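The authors deposited 1 table of raw gene counts and 1 table of FPKM, covering all 6 libraries. The submitters' processing notes name featureCounts 1.4.6, HISAT2 2.0.1, DESeq2 1.6.3 and Trim Galore 0.4.1, and the build GRCm38, without saying what each was used for. Which annotation, strand setting and FPKM tool applied is not given in the sources used here, so where genes overlap on opposite strands their reads may be mixed. Libraries were assigned to diets by their titles. Counts were tested with edgeR 4.0.16 in R 4.3.3 (filterByExpr, TMM, robust quasi-likelihood F test, Benjamini-Hochberg over 15347 genes, call under 0.05), and again with library size alone. SEs are the log2 fold change over the square root of F. The fit was checked on simulated data. FPKM were tested with limma 3.58.1 as log2(FPKM + 1) or log2(FPKM + 0.1), over the genes that passed the count filter, and counts also with limma-voom and DESeq2 1.42.0. On the log2(FPKM + 1) scale the fold change of low genes is understated. At these depths the SE over all genes had a median of 0.162 on the log2 scale. Ratios were compared by two-sided exact permutation tests.

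Named were the 9 members, up to 3 called genes with the smallest p from each of 5 lists, terms of ratios, and the 2 genes most correlated with each member (log2 CPM, prior count 2, mean of at least 1 CPM, without predicted genes and pseudogenes). Members and lists were chosen with earlier results of these data known. Ankh of the lists was matched to Ank by its RefSeq synonym. Positions are from GENCODE M21 on GRCm38, and promoter windows from RefSeq.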

Additional observations from a re-analysis of the deposited data

How the results depend on the processing

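Xpr1, Slc37a2 and Slc37a4 kept their direction and call under all 16 other settings tried for the TMM fit, and Enpp1 under 15. With library size alone 2 members were higher and 4 lower (4 and 2 with TMM), and 878 and 7886 of all genes (3528 and 4035). Higher calls were 2 members and 725 genes on log2(FPKM + 1), and 2 and 744 on log2(FPKM + 0.1). Slc20a1 turned to -0.023 and Slc20a2 to -0.11 with library size, and Slc20a2 to -0.32 and -0.35 on the FPKM scales. None of these values was called. Per fibre marker count, an alternative chosen after seeing the data, Slc20a1 turned to -0.65, Slc20a2 to -0.74, Slc25a3 to -0.59 and Slc37a4 to -0.11, and Enpp1 turned to 0.36 per macrophage and 0.15 per fibroblast marker count. The cause of these turns was not tested.

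Leaving out 1 library at a time under library-size scaling, higher calls ranged from 1 to 2 members, at 1 without high phosphate replicate 1 or 3, and lower calls from 2 to 4, at 2 without high phosphate replicate 1. Over all genes 669 to 800 were then called higher and 6580 to 8063 lower. There Slc20a1 ranged from -0.10 to 0.030, turning in 4 of the 6 runs, and Slc25a3 from -0.060 to 0.16, turning in 3. The log2 difference of the Slc20a2 to Slc20a1 ratio ranged from -0.16 to 0.0063, above 0 without normal phosphate replicate 3.

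With the replicate block 3 members were higher and 2 lower with TMM, and 2 and 3 with library size, beside 3407 and 3921, and 876 and 7945, of all genes. The deviations of same-numbered libraries correlated at -0.021, 0.022 and 0.019, and not every library correlated best with its own number. The labels do not say whether the numbers mark a pairing, and these correlations cannot settle it. The calls lost were Slc20a2 with TMM and Slc37a1 with library size. Slc37a1 had 11 to 53 counts per library, so its counting error is the widest of the 9.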
